A study of Mus musculus with 8 samples.

Results

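Amino acid transporters of the cell surface were followed in 4T1 cells, a mouse mammary tumor line used as a model of triple-negative breast cancer, by RNA sequencing. The genes were given by name as a list of 10 solute carriers, and a row was taken for each gene symbol in both deposited tables of comparisons. Of these 10 genes, 9 were described, each on a single row of each table, among 27051 and 27337 genes listed. Expression of *Slc43a1* was not analysed here, and this gene enters only the promoter search. The rule takes genes by symbol and uses no measured value.

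All cells were cultured with 2 mM glutamine and 10% FBS at 1% O2 and 5% CO2, as the labels give it. The groups were sdAb#07.81 (24 h), sdAb-Con (48 h) and sdAb#07.81 (48 h), with 2 libraries each. A single-domain antibody (sdAb) is the smallest antibody fragment that binds an antigen, and sdAb#07.81 was selected against NUPR1, a stress-induced nuclear protein. Both purified proteins were given at 0.5 μg/ml, and in the study's constructs they carry a cell-entry peptide (Tat) and a degron (cOdc1). The table that gives the 48 h control names it Nab-48h, a name the sample labels do not use, and it was read as sdAb-Con (48 h) because that is the only other group of 48 h. A further group, Con, was sequenced in 2 libraries and was not analysed here. There was no sdAb-Con group at 24 h, so the comparison of the times within sdAb#07.81 cannot be told apart from the time in culture. Nothing in the labels says that the libraries of a group came from separate cultures, so p-values measure the spread between these libraries, which may be technical.

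Whole reads per library were recovered from the deposited mean counts, as described under the processing. The 6 libraries held 13515343 to 16589634 reads over the recovered genes, and the 9 transporters took 0.163% to 0.202% of them. Which library carries replicate number 1 or 2 is not known, so values of a group are given as the deeper library first and the shallower library second. *Nupr1* transcripts, whose protein the antibody binds, stood at normalized counts of 1551 and 2135 in sdAb#07.81 (24 h), at 3575 and 2993 in sdAb-Con (48 h) and at 2931 and 2925 in sdAb#07.81 (48 h). All 6 epithelial markers were present, with a summed normalized count of 39819 to 47928 in each library. Of 10 markers of immune, fibroblast and endothelial cells, 4 reached a mean of 10 (*Cd68*, *Pdgfra*, *Col1a1* and *Col3a1*), and their sum ranged from 1507 to 1916. Single markers moved against each other within that sum: from 24 h to 48 h of sdAb#07.81, *Cd68* was higher (log2 fold change 1.18) and *Pdgfra* lower (-0.78), and among the epithelial markers *Cdh1* was higher (0.63) and *Krt14* lower (-1.33). Against sdAb-Con (48 h), *Cdh1* was higher (0.33) and *Krt14* lower (-0.53), and none of the 4 markers of other cell types passed the test. In sdAb-Con (48 h) against the 24 h group all 4 of them passed by limma voom, where 51.2% of all tested genes did, with *Cd68* 3.25-fold higher and a log2 difference of -0.82 for *Pdgfra*. The calls of *Col3a1* (3.31) and *Col1a1* (1.01) as higher rest on the shallower 24 h library, since the sdAb-Con (48 h) counts, 87.1 and 84.3 for *Col3a1* and 179 and 175 for *Col1a1*, lie under those of the deeper 24 h library. The part of these moves in the transporter results was not tested. The shallower sdAb#07.81 (24 h) library stood apart in *Col3a1*, with a normalized count of 0 against 146 in the deeper one, and in *Col1a1*, with 38.2 against 196. The bearing of this difference on the transporters was not tested, and values without that library are given where they change a call. In bulk RNA, fewer cells of a kind and less RNA per cell cannot be told apart.

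Cells take up amino acids through exchangers, which swap an amino acid outside for another inside, and through sodium-coupled carriers, which bring about net uptake. The heavy chain encoded by *Slc3a2* (CD98) carries light chains to the surface. Among its light chains, the *Slc7a5* product LAT1 imports large neutral amino acids such as leucine, and the *Slc7a6* product exchanges cationic for neutral amino acids. Low amino acid supply and other stresses act through the transcription factor ATF4, which raises the transcription of several transporters and of enzymes such as asparagine synthetase. Leucine and arginine brought in by these carriers are sensed upstream of mTORC1.

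ATF4 and C/EBP partners bind a composite element known as CARE, here searched as TGATGNAA on both strands in RefSeq promoter windows (GRCm38.p6) that run from 250 bases before to 50 bases after a transcript start. Such a window was found for 7 of the 10 listed transporters (11 windows), with none for *Slc7a5*, *Slc1a5* and *Slc38a1*. The letters were present in 1 of the 11 windows, that of *Slc1a4*. In a list of 14 amino acid response genes, 13 had a window, and 4 of their 15 windows held the letters, those of *Asns*, *Chac1*, *Trib3* and *Nupr1*. Of the other transporters *Slc7a11* alone was searched, chosen after its values were seen, and its window held them. Of all 32851 windows, 3.97% held them. The sites are shown to set the *Slc1a4* window beside those of the response genes, read 5′ to 3′ along the gene's strand, with the matching letters in capitals.
Slc1a4, chr11:20332699-20332728, minus strand: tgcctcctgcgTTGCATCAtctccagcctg
Asns, chr6:7693214-7693243, minus strand: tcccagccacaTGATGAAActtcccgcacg
Chac1, chr2:119351038-119351067, plus strand: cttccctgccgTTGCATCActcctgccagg
Trib3, chr2:152344028-152344057, minus strand: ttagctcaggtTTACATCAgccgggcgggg
Nupr1, chr7:126625562-126625591, minus strand: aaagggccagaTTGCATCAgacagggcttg
Slc7a11, chr3:50443661-50443690, minus strand: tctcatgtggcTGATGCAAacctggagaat
The match began at position -4 from the start in *Slc1a4*, at -23 in *Asns*, at -193 in *Chac1*, at 15 in *Trib3*, at -110 in *Nupr1* and at -66 in *Slc7a11*, which held a second match at -47. None of the matches shown overlapped an E-box (CACGTG) or a cAMP response element (TGACGTCA). An E-box was found in 1 of the 11 transporter windows, that of *Slc43a1*, and in 7.15% of all windows, and a cAMP response element in none of the 11 and in 1.79% of all. A match describes the letters only. A window without them does not show that the gene lacks them elsewhere, as only the bases of the windows were searched.

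In sdAb#07.81 (48 h) against sdAb-Con (48 h), the comparison of the antibody with its control at the same time, the transporters changed little and in both directions. The heavy chain gene *Slc3a2* and the glutamine exchanger gene *Slc1a5* were lower with sdAb#07.81, and the sodium-coupled carrier gene *Slc38a2* was higher, by the deposited test only. None of these 3 calls was made by limma voom on recovered reads, with all libraries or without any 1 of them, or after a trend on transcript length, GC and mean count was subtracted (adjusted p from 0.372 to 0.652). Of the 9 genes, 1 passed the test as higher and 2 as lower at an adjusted p under 0.05, while 16.6% of the 13876 genes tested passed it (9.9% as higher and 6.75% as lower). Over the 9 genes the median log2 fold change was -0.06, and over all tested genes it was -0.02. Within sdAb#07.81, from 24 h to 48 h, changes were larger and mostly downwards. Here 4 of the 9 genes were lower (*Slc1a5*, *Slc38a1*, *Slc7a6* and *Slc7a1*) and *Slc3a2* alone was higher, where 41.9% of 13968 tested genes passed the test (19.8% as higher and 22.1% as lower). The medians on the log2 scale were -0.19 for the 9 genes and -0.01 for all tested genes. The last pair, sdAb-Con (48 h) against sdAb#07.81 (24 h), has no table of its own and was tested on the recovered reads. In it, 1 gene was higher and 5 were lower in sdAb-Con (48 h), against 51.2% of 13862 tested genes (25.2% as higher and 26% as lower). This pair differs in both antibody and time, which cannot be told apart. The 3 comparisons share libraries and are given side by side.

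**Figure D1:**
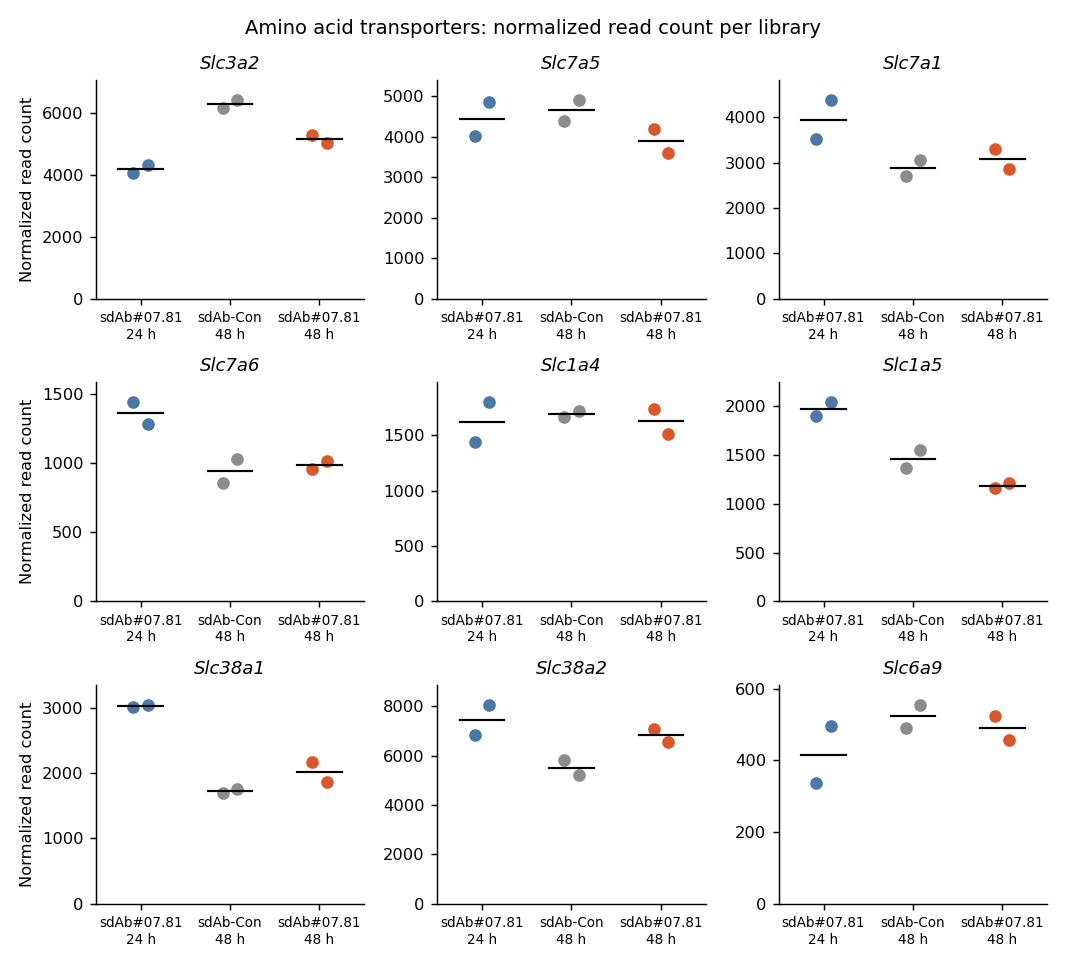
Normalized read count (vertical axes, from 0) of each of the 9 transporters in the 6 libraries, by group, with a point for each library and a line at the mean of the 2 libraries. *Slc1a5* and *Slc38a1* are highest in both sdAb#07.81 (24 h) libraries, while *Slc3a2* is lowest there and highest in sdAb-Con (48 h).

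The tables place *Slc3a2* (ENSMUSG00000010095) on chromosome 19 from 8684246 to 8700733, minus strand; the mouse build of these positions is not given in the sources used here, and positions below are as the tables list them. Its normalized counts were 4079 and 4331 in sdAb#07.81 (24 h), 6179 and 6441 in sdAb-Con (48 h) and 5291 and 5034 in sdAb#07.81 (48 h). The 3 groups did not overlap, with sdAb#07.81 (48 h) between the other two. In the deposited table the log2 fold change of sdAb#07.81 (48 h) against sdAb-Con (48 h) was -0.29 (SE 0.0867, adjusted p = 0.00913), a change of -18.2%. Against sdAb#07.81 (24 h) it was 0.29 (SE 0.0890, adjusted p = 0.00428), a change of 22.1%. On recovered reads, sdAb-Con (48 h) exceeded sdAb#07.81 (24 h) by a log2 difference of 0.59 (SE 0.103, adjusted p = 0.00012 from limma voom).

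*Slc7a5* (ENSMUSG00000040010, chromosome 8, 122607889 to 122634433, minus strand) encodes LAT1, the leucine exchanger that pairs with the *Slc3a2* product. Its counts were 4019 and 4865 in sdAb#07.81 (24 h), 4399 and 4915 in sdAb-Con (48 h) and 4199.7 and 3602 in sdAb#07.81 (48 h). Both sdAb#07.81 (48 h) libraries lay under both sdAb-Con (48 h) libraries, and the 24 h libraries overlapped with each of the other groups. It changed by a log2 fold of -0.26 (SE 0.109, adjusted p = 0.0905) against sdAb-Con (48 h) and -0.19 (SE 0.112, adjusted p = 0.155) against sdAb#07.81 (24 h), neither past the threshold. The 95% intervals from the deposited standard errors, -0.47 to -0.04 and -0.41 to 0.02, leave room for a decrease of the size seen in *Slc3a2* against sdAb-Con (48 h).

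*Slc7a6* (ENSMUSG00000031904, chromosome 8, 106895489 to 106925338, plus strand), the light chain that exchanges arginine for glutamine, had counts of 1438 and 1283 in sdAb#07.81 (24 h), 854 and 1024 in sdAb-Con (48 h) and 957 and 1014 in sdAb#07.81 (48 h). The 24 h libraries were above every library of 48 h, which overlapped. The log2 fold change was -0.47 (SE 0.119, adjusted p = 0.000307) against sdAb#07.81 (24 h), a change of -28.0%, and 0.07 (SE 0.125, adjusted p = 0.774) against sdAb-Con (48 h). The log2 difference of sdAb-Con (48 h) from sdAb#07.81 (24 h) was -0.54 (SE 0.124, adjusted p = 0.00129 from limma voom).

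From 24 h to 48 h of sdAb#07.81, *Slc3a2* was higher and *Slc7a6* lower, while *Slc7a5* did not pass the test. Per kilobase of the longest annotated transcript, *Slc3a2* over the sum of *Slc7a5* and *Slc7a6* was 0.950 and 0.892 in sdAb#07.81 (24 h), 1.49 and 1.37 in sdAb-Con (48 h), and 1.30 and 1.38 in sdAb#07.81 (48 h). Both 24 h ratios were under every ratio at 48 h, and the ratios of both 48 h groups overlapped. With the median transcript length in place of the longest, the ratio was under 1 in every library (0.599 and 0.559, 0.924 and 0.854, and 0.810 and 0.867 in the same order), and the 24 h libraries were again the lowest. Other partners of the heavy chain, such as the *Slc7a11* product, are not in this sum. *Slc7a5* over *Slc7a6* was 2.98 and 4.04 in sdAb#07.81 (24 h), 5.49 and 5.12 in sdAb-Con (48 h), and 4.68 and 3.79 in sdAb#07.81 (48 h), lower in both sdAb#07.81 (48 h) libraries than in both sdAb-Con (48 h) libraries. With 2 libraries a group, an exact permutation test of such a ratio cannot go below a two-sided p of 0.333, so the ratios are given with no test.

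*Slc7a1* (ENSMUSG00000041313, chromosome 5, 148264220 to 148336714, minus strand) encodes a carrier of arginine and lysine that needs no heavy chain. Its counts were 3518 and 4394 in sdAb#07.81 (24 h), 2715 and 3069.9 in sdAb-Con (48 h) and 3295 and 2854 in sdAb#07.81 (48 h). The 24 h libraries were above all libraries of 48 h, and both 48 h groups overlapped. Its log2 fold change was -0.37 (SE 0.116, adjusted p = 0.00501) against sdAb#07.81 (24 h) and 0.09 (SE 0.109, adjusted p = 0.655) against sdAb-Con (48 h). Between sdAb-Con (48 h) and the 24 h group the log2 difference was -0.45 (SE 0.123, adjusted p = 0.00544 from limma voom).

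*Slc1a5* (ENSMUSG00000001918, chromosome 7, 16515265 to 16532199, plus strand) encodes ASCT2, a sodium-dependent exchanger of neutral amino acids that carries glutamine. It showed the largest change of the 9 genes within sdAb#07.81. Its counts were 1904 and 2043 in sdAb#07.81 (24 h), 1364 and 1554 in sdAb-Con (48 h) and 1158 and 1209.7 in sdAb#07.81 (48 h). The groups did not overlap, and sdAb#07.81 (48 h) was the lowest. From 24 h to 48 h of sdAb#07.81 the log2 fold change was -0.74 (SE 0.105, adjusted p = 2.4e-11), a change of -40.3%. Against sdAb-Con (48 h) it was -0.30 (SE 0.109, adjusted p = 0.0370), a change of -18.9%. The log2 difference of sdAb-Con (48 h) from sdAb#07.81 (24 h) was -0.44 (SE 0.113, adjusted p = 0.00319 from limma voom).

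The promoter site of *Slc1a4* is printed above in GRCm38.p6 positions, which cannot be set against the positions listed here. *Slc1a4* (ENSMUSG00000020142, chromosome 11, 20252180 to 20282713, minus strand) encodes ASCT1, the related exchanger of alanine, serine, cysteine and threonine. Its counts were 1436 and 1798 in sdAb#07.81 (24 h), 1665 and 1721 in sdAb-Con (48 h) and 1736 and 1511 in sdAb#07.81 (48 h), so all groups overlapped. The log2 fold change was -0.06 (SE 0.103, adjusted p = 0.758; 95% interval -0.26 to 0.14) against sdAb-Con (48 h). Against sdAb#07.81 (24 h) it was -0.0015 (SE 0.125, adjusted p = 0.995; 95% interval -0.25 to 0.24). Per kilobase, *Slc1a5* over *Slc1a4* was 1.85 and 1.59 in sdAb#07.81 (24 h), 1.15 and 1.26 in sdAb-Con (48 h) and 0.933 and 1.12 in sdAb#07.81 (48 h), with no overlap between the groups. With the median transcript length the same ratio was 7.05 and 6.04, 4.36 and 4.80, and 3.55 and 4.26, so its size depends on the length used and the order of the groups does not.

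**Figure D2:**
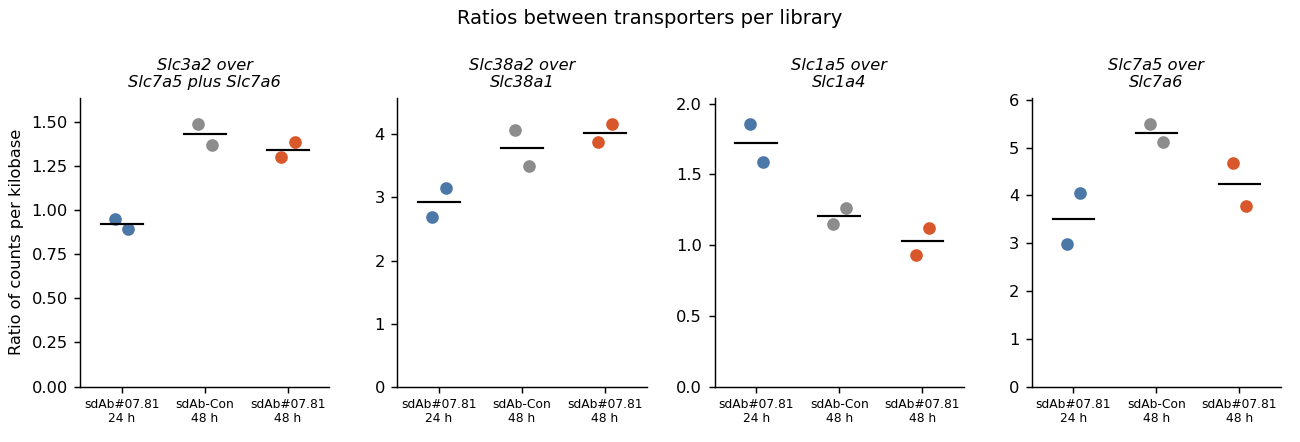
Ratios of normalized counts per kilobase of the longest transcript between transporters (vertical axes, from 0) in each of the 6 libraries, with a line at the mean of a group. *Slc3a2* over *Slc7a5* plus *Slc7a6* is lower in both sdAb#07.81 (24 h) libraries than in the others, and *Slc1a5* over *Slc1a4* is highest at 24 h.

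*Slc38a1* and *Slc38a2* encode sodium-coupled carriers of small neutral amino acids such as glutamine and alanine, and they are neighbours on chromosome 15, both on the minus strand, 44.5 kb apart with no listed gene wholly between them. *Slc38a1* (ENSMUSG00000023169, 96469299 to 96540794) had counts of 3014 and 3048 in sdAb#07.81 (24 h), 1695 and 1762 in sdAb-Con (48 h) and 2172 and 1869 in sdAb#07.81 (48 h). The groups did not overlap, with the 24 h libraries far above the rest. The log2 fold change was -0.59 (SE 0.102, adjusted p = 6.8e-08) against sdAb#07.81 (24 h), a change of -33.7%, and 0.22 (SE 0.104, adjusted p = 0.126) against sdAb-Con (48 h). Between sdAb-Con (48 h) and the 24 h group the log2 difference was -0.81 (SE 0.111, adjusted p = 7.7e-06 from limma voom), the largest of the 9 genes in that pair.

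*Slc38a2* (ENSMUSG00000022462, 96585273 to 96597611), known to rise when amino acids are scarce, had counts of 6839 and 8076 in sdAb#07.81 (24 h), 5814 and 5200.1 in sdAb-Con (48 h) and 7098 and 6550.4 in sdAb#07.81 (48 h). Both sdAb-Con (48 h) libraries were under all sdAb#07.81 libraries, and the sdAb#07.81 groups overlapped. Its log2 fold change was 0.31 (SE 0.0990, adjusted p = 0.0164) against sdAb-Con (48 h), a change of 23.9%. Against sdAb#07.81 (24 h) it was -0.14 (SE 0.101, adjusted p = 0.289; 95% interval -0.33 to 0.06). The log2 difference of sdAb-Con (48 h) from sdAb#07.81 (24 h) was -0.43 (SE 0.113, adjusted p = 0.00347 from limma voom). Whether the neighbours differed in their change was not tested, and *Slc38a2* over *Slc38a1* per kilobase stood at 2.70 and 3.15 in sdAb#07.81 (24 h), 4.08 and 3.51 in sdAb-Con (48 h) and 3.88 and 4.16 in sdAb#07.81 (48 h), or at 1.57 and 1.83, 2.37 and 2.04, and 2.26 and 2.42 with the median length.

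*Slc6a9* (ENSMUSG00000028542, chromosome 4, 117691703 to 117732395, plus strand) encodes a sodium- and chloride-coupled glycine carrier and had the lowest counts of the 9 genes. They were 336 and 495 in sdAb#07.81 (24 h), 490.3 and 556 in sdAb-Con (48 h) and 525 and 458 in sdAb#07.81 (48 h), with every pair of groups overlapping. The 24 h libraries differed by 38.3% of their mean, the widest gap within a group among the 9 genes. The log2 fold change was -0.09 (SE 0.145, adjusted p = 0.741; 95% interval -0.37 to 0.19) against sdAb-Con (48 h) and 0.24 (SE 0.188, adjusted p = 0.327; 95% interval -0.13 to 0.60) against sdAb#07.81 (24 h). The log2 difference of sdAb-Con (48 h) from sdAb#07.81 (24 h) was 0.36 (SE 0.166, adjusted p = 0.0798 from limma voom).

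**Figure D3:**
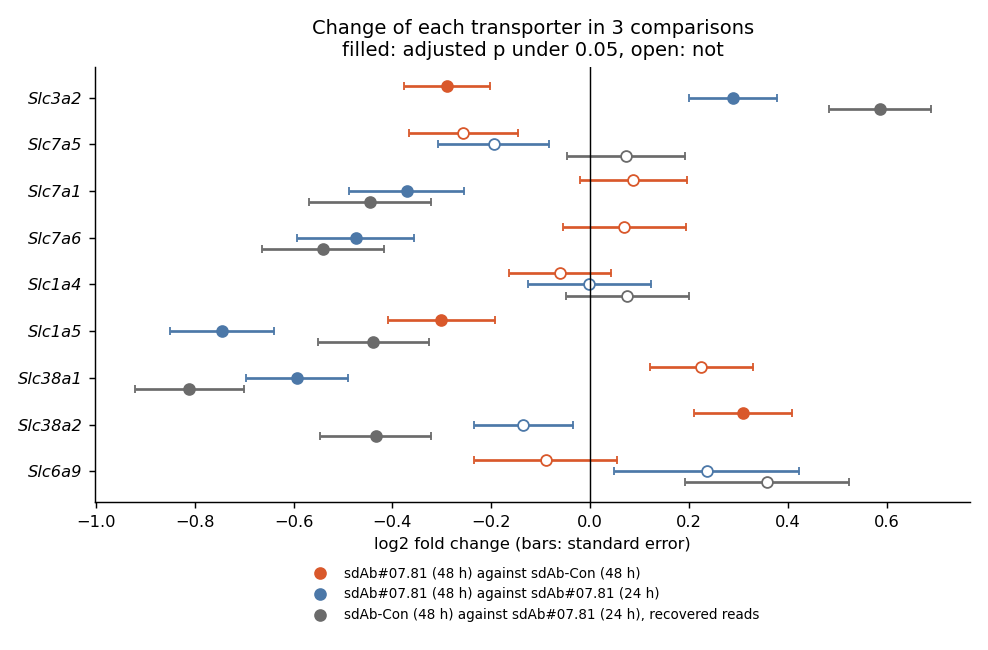
Log2 fold change (horizontal axis) of each transporter in the 3 comparisons, with bars of 1 standard error either side; filled points passed an adjusted p under 0.05 and open points did not. Changes against sdAb-Con (48 h) lie between -0.30 and 0.31, and those within sdAb#07.81 between -0.74 and 0.29.

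Levels can be compared between genes per kilobase of the longest annotated transcript. In sdAb#07.81 (48 h), the mean normalized count per kilobase was 1835 for *Slc3a2*, 1116 for *Slc38a2* and 1109 for *Slc7a5*. It was 428 for *Slc7a1*, 422 for *Slc1a5*, 414 for *Slc1a4*, 278 for *Slc38a1*, 263 for *Slc7a6* and 141 for *Slc6a9*. *Slc38a2* and *Slc7a5* did not differ beyond the spread of their libraries, nor did *Slc7a1*, *Slc1a5* and *Slc1a4*, nor *Slc38a1* and *Slc7a6*. *Slc3a2* was the highest and *Slc6a9* the lowest in all 3 groups. In sdAb#07.81 (24 h), *Slc1a5* stood next after *Slc38a2* with 703 and *Slc38a1* had 417, just above *Slc1a4* with 412, whose libraries overlapped with it. In sdAb-Con (48 h), *Slc7a5* with 1324 was above *Slc38a2* with 900.5, with no overlap. With the median length of each gene's annotated transcripts in place of the longest, *Slc7a5* at 7188 rose above *Slc3a2* at 5178 in sdAb#07.81 (24 h), and in sdAb#07.81 (48 h) *Slc38a2* at 1267 fell under *Slc1a5* at 1615, *Slc7a1* at 1560 and *Slc7a6* at 1286. The order of these genes thus changes with the length used. Among 13961 genes and by the longest transcript, the average level of *Slc3a2* per kilobase lay above 96.9%, that of *Slc7a5* above 94.5%, that of *Slc38a2* above 93.3% and that of *Slc6a9* above 49.9%.

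The changes against sdAb-Con (48 h) went with transcript length, more so for the longest annotated transcript than for the median one. Spearman's rho of the log2 fold change with the longest transcript was 0.452 across 13725 tested genes and -0.125 across 13809 genes within sdAb#07.81, as a description, since genes of the same libraries are not independent of each other. With the median length it was 0.324 and -0.0696. By the longest transcript, the called genes *Slc3a2* and *Slc1a5* are the shortest of the 9 (2.81 kb each), and *Slc38a2*, *Slc7a1* and *Slc38a1*, all with positive changes, are the longest (6.12, 7.18 and 7.27 kb). By the median length the uncalled *Slc7a5* is the shortest (0.618 kb), and *Slc7a6* (0.766 kb) is shorter than *Slc3a2* (0.812 kb). After a fitted trend on length, GC and mean count was subtracted, the log2 fold change was -0.15 for *Slc3a2* (adjusted p = 0.372), -0.16 for *Slc1a5* (adjusted p = 0.517) and 0.11 for *Slc38a2* (adjusted p = 0.652), and none of the 9 genes passed the test, adjusted or at an unadjusted p under 0.05 (0 genes). Limma voom on the recovered reads gave nearly the same fold changes with larger standard errors, and 0 of the 9 passed, with adjusted p values of 0.0784 for *Slc3a2*, 0.0851 for *Slc38a2* and 0.108 for *Slc1a5*, although 4 had an unadjusted p under 0.05. By that test 9.83% of all tested genes passed. 

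**Figure D4:**
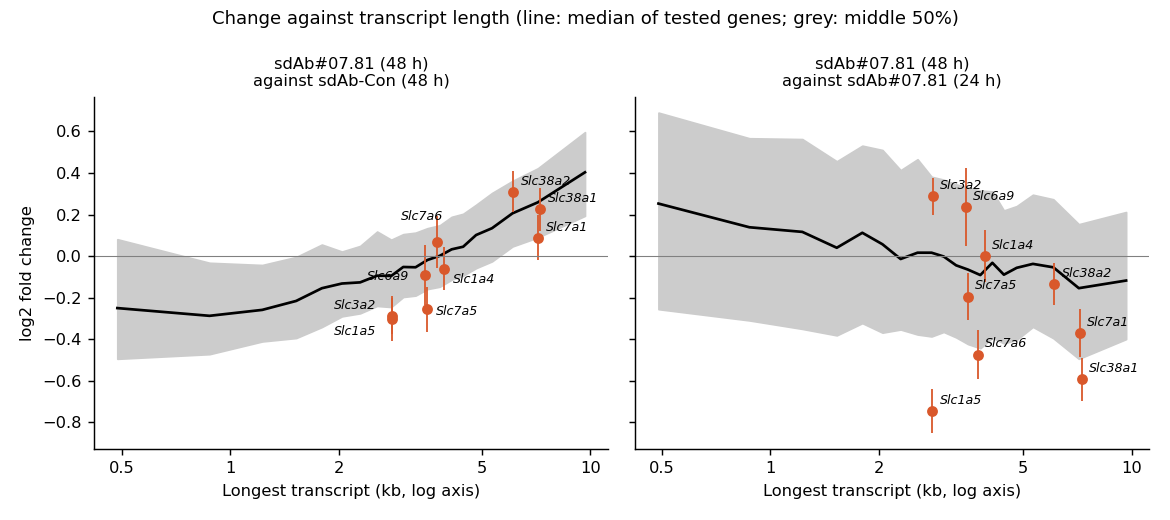
Log2 fold change (vertical axis) of the 9 transporters against the length of the longest transcript (horizontal log axis, kb), with bars of 1 standard error. The black line is the median of all tested genes in 20 bins of length and the grey band their middle 50%; against sdAb-Con (48 h) *Slc3a2*, *Slc1a5* and *Slc7a5* lie under the band and *Slc7a1* at its lower edge, just outside, and within sdAb#07.81 *Slc1a5* and *Slc7a6* lie under the band and so does *Slc38a1*.

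Within sdAb#07.81 the calls of *Slc1a5*, *Slc38a1* and *Slc7a6* stood up to the changes of method below, while those of *Slc3a2* and *Slc7a1* did so only in part. With the trend subtracted, *Slc1a5* (log2 fold change -0.68), *Slc38a1* (-0.44), *Slc7a6* (-0.42) and *Slc3a2* (0.29) still passed, and *Slc7a1* did not (-0.22, adjusted p = 0.119). Limma voom on the recovered reads called the same 5 genes as the deposited test, where it called 42.9% of all tested genes. *Slc1a5*, *Slc38a1* and *Slc7a6* passed without any 1 library. *Slc3a2* no longer passed without the deeper sdAb#07.81 (48 h) library (log2 fold change 0.26, adjusted p = 0.143), the shallower one (0.33, adjusted p = 0.0597) or the deeper sdAb#07.81 (24 h) library (0.25, adjusted p = 0.140), with values near that of all libraries. *Slc7a1* no longer passed without the shallower sdAb#07.81 (48 h) library (-0.26, adjusted p = 0.199) or the shallower sdAb#07.81 (24 h) library (-0.20, adjusted p = 0.265), and without the latter *Slc6a9* passed as higher (log2 fold change 0.54, adjusted p = 0.0138). Between sdAb-Con (48 h) and the 24 h group, *Slc3a2*, *Slc38a1* and *Slc7a6* passed in every such fit. Without the deeper sdAb-Con (48 h) library *Slc7a1* (adjusted p = 0.0829) and *Slc1a5* (adjusted p = 0.0638) did not pass. Without the shallower sdAb#07.81 (24 h) library *Slc7a1* (adjusted p = 0.0887) and *Slc38a2* (adjusted p = 0.0568) did not, and *Slc6a9* did (log2 difference 0.63, adjusted p = 0.00376). A lone library is assumed in these fits to vary like those of the other groups.

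Among 33 other amino acid transporters of the cell surface, 10 had a mean count of at least 10. None passed the deposited test against sdAb-Con (48 h), where 16.6% of all tested genes did, with a median log2 fold change of 0.05. Within sdAb#07.81 the median was 0.18 and 2 of the 10 passed, beside 41.9% of all tested genes. Of these, *Slc7a11*, the cystine-glutamate exchanger that also pairs with the *Slc3a2* heavy chain and whose promoter site is shown above, was lower with a log2 fold change of -1.76 (SE 0.380, adjusted p = 2.1e-05). Its counts were 1043 and 1771 in sdAb#07.81 (24 h), 386 and 409 in sdAb-Con (48 h) and 450.2 and 381 in sdAb#07.81 (48 h), so that the 24 h libraries were above all others and far from each other. *Slc6a20b* was higher with 1.91 (SE 0.804, adjusted p = 0.0428), at counts of only 2.75 to 26.2. Of 6 lysosomal amino acid transporters none passed against sdAb-Con (48 h), again beside 16.6% of all tested genes, and 4 were higher at 48 h than at 24 h of sdAb#07.81, with a median of 0.44 over the list, where 19.8% of all tested genes were higher. Without the deeper sdAb#07.81 (48 h) library or the shallower sdAb#07.81 (24 h) library, limma voom called fewer of the 6. The share called over all genes in those fits is not given here. The 4 genes called by the deposited test were *Mfsd12* (cysteine import, 0.73), *Slc38a9* (the arginine sensor of mTORC1, 0.61), *Ctns* (cystine export, 0.48) and *Slc36a1* (0.41).

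In the list of 14 amino acid response genes, the calls had the sign of *Slc3a2* in both deposited comparisons but for 1 gene. The other called transporters did not share that sign throughout. Against sdAb-Con (48 h) *Slc1a5* had it and *Slc38a2* had the opposite one. Within sdAb#07.81 *Slc1a5*, *Slc38a1*, *Slc7a6* and *Slc7a1* had the opposite sign. Against sdAb-Con (48 h), 7 were lower and none was higher by the deposited test, with a median log2 fold change of -0.24, beside 6.75% and 9.9% of all tested genes. *Ddit4*, an inhibitor of mTORC1, had the lowest value (-0.79, SE 0.282), followed by the glutathione-degrading enzyme *Chac1* (-0.62, SE 0.132) and the transcription factors *Ddit3* (-0.61, SE 0.126) and *Cebpb* (-0.49, SE 0.135). With that trend subtracted 0 of the 14 passed, and limma voom on recovered reads called 6, but 1 without the deeper sdAb#07.81 (48 h) library, 0 without the deeper sdAb-Con (48 h) library and 3 without the shallower one. In these 3 fits the share called over all genes also fell, from 9.83% to 1.54%, 2.73% and 2.06%. Within sdAb#07.81, 9 of the 14 were higher at 48 h and *Atf4* was lower (-0.26), with a median of 0.54, beside 19.8% and 22.1% of all tested genes. *Ddit3* rose most, from counts of 919 and 884 to 4966 and 5798 (log2 fold change 2.57, SE 0.108), and *Cebpb* (0.71), *Nupr1* (0.66) and *Atf5* (0.64) followed. In sdAb-Con (48 h) *Ddit3* stood at 8985 and 7388, and 10 of the 14 genes were higher there than in sdAb#07.81 (24 h), as were 25.2% of all tested genes. Of the genes with a CARE match, those that passed the deposited test against sdAb-Con (48 h) were all lower. Within sdAb#07.81 those that passed were higher but for *Slc7a11*, which was searched after its values were seen. On the log2 scale, the change against sdAb-Con (48 h) was -0.62 for *Chac1*, -0.42 for *Trib3* and -0.31 for *Asns*, which passed the deposited test, and -0.17 for *Nupr1*, -0.06 for *Slc1a4* and 0.07 for *Slc7a11*, which did not. Within sdAb#07.81, *Nupr1* (0.66), *Trib3* (0.57), *Chac1* (0.54) and *Asns* (0.54) were higher, *Slc7a11* was lower (-1.76), and *Slc1a4* had a value of -0.0015.

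Genes that sense amino acids upstream of mTORC1 were mixed. Of 18 tested, 3 were higher and 2 lower against sdAb-Con (48 h), with a median of -0.08, beside 9.9% and 6.75% of all tested genes. These 5 calls fell to 0 after the trend was subtracted, to 0 by limma voom and to 1 with no filter on the mean. By the deposited test *Fnip1* (0.42) and *Sesn3* (0.37) were higher, and the lysosomal scaffold genes *Lamtor1* (-0.42) and *Lamtor5* (-0.40) were lower. Within sdAb#07.81, 6 were higher and 2 lower, with a median of 0.13, so that 8 of 18 passed where 41.9% of all tested genes did, a share near that background. Limma voom called 8 with all libraries and fewer without either sdAb#07.81 (48 h) library. The share called over all genes in those fits is not given here, so no weakness of the list is read from them. *Sesn3* (0.97), *Lamtor2* (0.97) and the arginine sensor *Castor1* (0.75) were higher and *Lamtor1* was lower (-0.58). Of 10 genes of glutamine and glutamate metabolism, the median was -0.09 against sdAb-Con (48 h). The transaminases *Got2* (-0.39), *Gpt2* (-0.36) and *Got1* (-0.32) were lower by the deposited test, as were 6.75% of all tested genes. After the trend was subtracted 1 gene of the list was lower, where 5.2% of all tested genes passed in either direction. By limma voom 1 was lower, where 9.83% passed. Within sdAb#07.81, 3 were higher and 2 lower, with a median of 0.08, again beside 41.9% of all tested genes, and glutamine synthetase, *Glul*, was higher (0.50, SE 0.111), as was *Gfpt1* (0.72), which uses glutamine to make hexosamines.

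**Figure D5:**
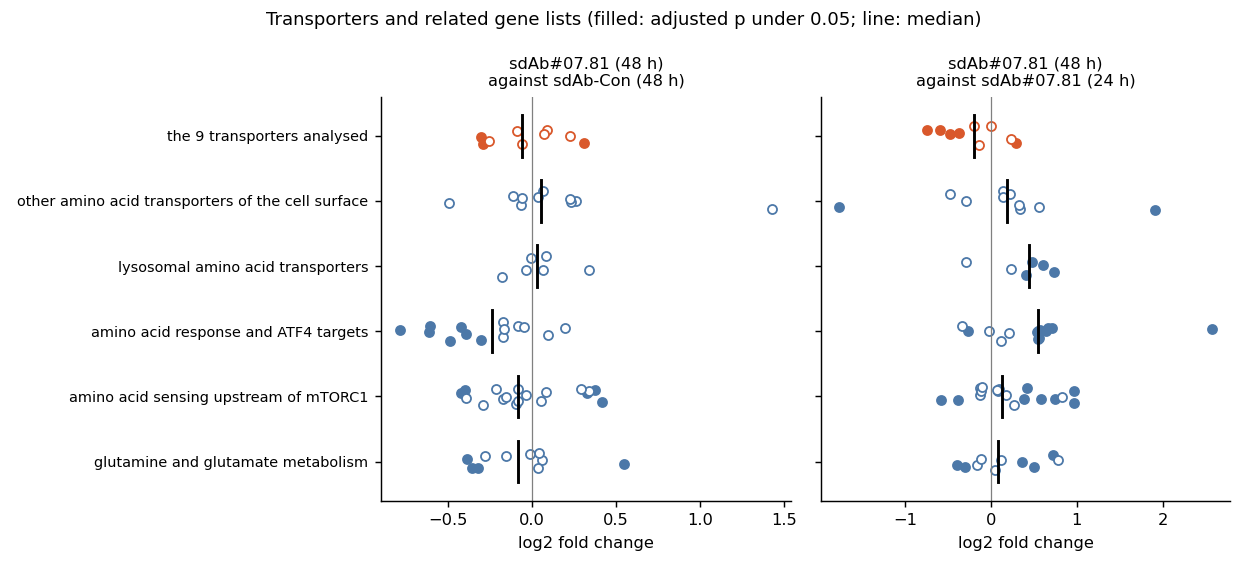
Log2 fold change (horizontal axes) of the 9 transporters and of the tested genes of 5 related lists in both tables; filled points passed an adjusted p under 0.05, open points did not, and a black line marks the median. The transporters lie to the left of zero within sdAb#07.81 in 7 of 9 cases, while the medians of the other 5 lists lie to the right.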

How the data were processed

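The authors sequenced RNA from 4T1 cells on an Illumina NovaSeq instrument in 4 groups of 2 libraries, 8 in all, and 6 libraries enter the 2 tables used here. The submitters' processing notes name cutadapt 1.9.1, HISAT2 2.0.1, HTSeq 0.6.1 and, though the gene identifiers are mouse, the human build GRCh38.p14, with no roles. One table names its control Nab-48h, which is not a sample label; it was taken as sdAb-Con (48 h), the only other group of 48 h. For each gene the authors deposited a mean over 4 libraries of counts divided by size factors (a coverage signal), a log2 fold change with its standard error, and a two-sided p-value. The deposited fold changes and p-values are the authors' own comparisons. They were used because the genes were defined on those tables, and adjusted p-values were recomputed from the deposited ones (two-sided Wald tests per gene, Benjamini-Hochberg) over genes with a mean of at least 10, with a threshold of 0.05. 

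The deposited means carry 15 digits, so the whole reads of each library could be solved for, with size factors from genes of a single read. Of 14133 genes searched (means from 10 to 20000), 14129 had a solution, and reads of the shared sdAb#07.81 (48 h) libraries were equal in both tables for all 13607 genes with a single solution in each. Normalized counts per library divide these reads by median-of-ratios factors over 6 libraries (0.913 to 1.09). They hold 79.6% and 83.2% of the summed means of the tables, as genes above 20000 were left out. Limma 3.58.1 voom under R 4.3.3 tested them with the 3 groups in one fit. All other steps used Python 3.11.15, and calling, trend removal and read recovery were tested on simulated data. Intervals and standard errors rest on 2 libraries a group.

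Gene identifiers matched GENCODE M21 (GRCm38) in 95.8% of cases, which gave transcript lengths and GC content; 2.04% of these shared the gene start, so coordinates are those of the tables. The members and lists were chosen with earlier results of these data known. Named genes were every transporter and, of each list, up to 4 called genes of the largest change in a comparison; *Asns*, *Col1a1* and *Col3a1* and the genes with a promoter match were named after their values were seen. One result of the glutamine and glutamate list is not reported here.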

Additional observations from a re-analysis of the deposited data

How the results depend on the processing

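No paired analysis was possible because the recovered libraries carry no replicate number. For sdAb#07.81 (48 h) against sdAb-Con (48 h), the 3 called transporters fell to 0 with a fold change of at least 1.5 or a log2 fold change of at least 1, to 0 after subtracting the trend on length, GC and mean count, and to 0 by limma voom on recovered reads, as it was without any 1 library (0 to 0). For sdAb#07.81 (48 h) against sdAb#07.81 (24 h), the 5 calls fell to 2 at a fold change of 1.5 and 0 at a log2 fold change of 1, and were 3 to 5 without 1 library. For sdAb-Con (48 h) against sdAb#07.81 (24 h), the 6 calls were 4 to 6, and the median difference of the tables, -0.44, ranged from -0.46 to -0.29. A fold threshold can only lower a count by construction; the cause of the other changes was not tested.

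Signs reversed for genes that did not pass the deposited test in the comparison; of these, *Slc6a9* passed against sdAb#07.81 (24 h) without the shallower 24 h library. Against sdAb-Con (48 h), *Slc7a1* was -0.10 after trend removal and -0.022 to 0.188 without 1 library, *Slc7a6* -0.0593 to 0.206, *Slc1a4* -0.170 to 0.0327 and *Slc6a9* -0.192 to 0.00539. Against sdAb#07.81 (24 h), *Slc1a4* was 0.0125 when re-centred, 0.0907 after trend removal, 0.0125 by limma voom and -0.149 to 0.172 without 1 library, and *Slc6a9* -0.0118 to 0.544. Against sdAb-Con (48 h), *Slc1a5* did not pass with no filter on the mean (adjusted p = 0.0719) or re-centred (adjusted p = 0.0571). Of all tested genes, calls against sdAb-Con (48 h) went from 16.6% to 9.83% by limma voom, 5.2% after trend removal, 6.63% with no filter, 4.37% at a fold change of 1.5 and 1.11% at a log2 fold change of 1; within sdAb#07.81 from 41.9% to 19.2%, 24.2% and 10.5% in the last 3 settings. Alternatives on recovered reads were chosen after seeing the data.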
